A study of Mus musculus with 86 samples.

Results

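The proteasome subunit genes were taken as all genes whose single platform symbol begins with Psma to Psmg followed by a number, with the immunoproteasome genes Psmb8, Psmb9 and Psmb10 kept apart. This gave 47 genes of 18193 that could be read, from 100 probe sets, and each gene was represented by its probe set of highest mean log2 level over the 8 groups. The symbols of 2 further genes begin the same way (Psmc3ip and Psme3ip1), but these encode proteins that interact with a subunit and were left out. Psme2 was not read, because its probe set is shared with Psme2b. The hearts of 4 mouse lines were profiled on Affymetrix expression arrays after 14 days of isoproterenol, a beta-adrenergic agonist infused at 120 µg/g/day, or after no treatment. The 85 arrays compared were 10 untreated and 12 treated from FVB, 11 and 10 from C57BL/6, 10 and 10 from B2KO, and 10 and 12 from B6129SF2/J. The labels do not explain the name B2KO further, do not give ages, and do not tie each array to a mouse of its own, so p-values measure the spread between arrays.

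The proteasome is the main protease of the cytosol and nucleus. Its barrel, the core particle, has outer rings of alpha subunits (Psma genes) that gate the entrance and inner rings of beta subunits (Psmb genes), of which Psmb5, Psmb6 and Psmb7 carry the constitutive active sites. A cap, the regulatory particle, holds a ring of ATPases (Psmc genes) that unfold substrates. It also holds non-ATPase subunits (most Psmd genes), some of which bind or remove ubiquitin. Not all genes grouped as Psmd by symbol encode cap subunits, and Psmd9 is among those that encode chaperones of cap assembly. Other activators (Psme genes), an inhibitor (Psmf1) and assembly chaperones (Psmg genes) complete the set. Under interferon gamma, Psmb8, Psmb9 and Psmb10 replace the constitutive active-site subunits and the immunoproteasome so formed favours peptides for MHC class I. Proteasome genes are known to be induced together by the transcription factor Nfe2l1 when proteasome activity falls, through antioxidant response elements. In heart muscle the proteasome turns over sarcomeric and signalling proteins.

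RefSeq promoters of build GRCm38.p6 were matched by symbol for 39 of the 47 genes, and those of 3 members, from the ATPase ring, the rest of the cap and the active sites, are shown because they hold the core of the antioxidant response element. The core was searched as TGACNNNGC on both strands. The 250 bases before the start used by the promoter set are printed 5′ to 3′ along the gene, with the matched bases in capitals. The RefSeq span of Psmb6 begins at chr11:70525324, so the end of its stretch, with the match, lies inside the gene. The Psmc6 stretch ends on the first base of its gene's span, 45329823. In Psmc6 and Psmd12 the match is on the opposite strand.
Psmc6 promoter, chr14:45329574-45329823, plus strand: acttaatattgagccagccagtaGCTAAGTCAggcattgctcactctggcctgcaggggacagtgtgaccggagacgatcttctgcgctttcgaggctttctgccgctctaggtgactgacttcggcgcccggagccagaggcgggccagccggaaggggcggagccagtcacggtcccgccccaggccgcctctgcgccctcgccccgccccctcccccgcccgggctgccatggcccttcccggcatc
Psmd12 promoter, chr11:107479278-107479527, plus strand: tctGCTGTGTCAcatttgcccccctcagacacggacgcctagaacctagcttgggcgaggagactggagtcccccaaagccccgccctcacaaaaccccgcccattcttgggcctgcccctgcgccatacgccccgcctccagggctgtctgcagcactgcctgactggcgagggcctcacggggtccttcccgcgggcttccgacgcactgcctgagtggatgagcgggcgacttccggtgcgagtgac
Psmb6 promoter, chr11:70525107-70525356, plus strand: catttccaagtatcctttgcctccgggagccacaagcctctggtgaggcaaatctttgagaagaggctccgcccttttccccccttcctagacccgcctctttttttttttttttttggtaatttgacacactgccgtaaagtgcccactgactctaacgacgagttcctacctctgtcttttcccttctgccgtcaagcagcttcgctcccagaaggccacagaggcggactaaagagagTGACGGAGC
Over windows that also held the first 50 bases of the transcript, 6 of 36 constitutive member genes (16.7%) had the core, against 13.99% of all 27025 genes with a promoter. The 6 were Psmb5, Psmb6, Psmc6, Psmd9, Psmd12 and Psme4. A CCAAT box, searched as CCAAT, was in 13 of 36 (36.1%), against 41.1% of all genes. The core of the interferon-stimulated response element, searched as GAAA, any 2 bases and GAAA again, was in 5 of 36 (13.9%), against 3.99% of all genes, and in 0 of the 3 immunoproteasome genes. These shares describe letters in a window and not binding.

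Levels are log2 of the deposited linear intensity, for which the submitters' processing notes name GCRMA and which has a median of 1 on every array, so a level of 0 is the median probe set. All 8 cardiomyocyte markers were read, with group means of Myh6, the cardiac alpha myosin heavy chain, from 11.44 to 12.10. Treated B2KO replicate 10 stood apart from all other arrays: its median correlation with them was 0.573, against 0.830 to 0.963 elsewhere, and the median of its proteasome genes was 0.41. By strain-marker probe sets, treated FVB replicate 2 was nearer to the background of another line than to its own, and treated B2KO replicate 7 was about as near to another as to its own. In 5 arrays the 3′ and 5′ Gapdh probe sets differed by over 2 log2 units, most of all in untreated C57BL/6 replicate 11 (7.43) and untreated B2KO replicate 8 (7.31). These 8 arrays were kept, and each count below is given without them where that matters. In bulk heart RNA, fewer cells of a type and less RNA per cell cannot be told apart.

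Of the 44 constitutive genes, 42 passed the filter, a group mean above log2 0 in at least one group. Psma8, a testis subunit, and Psmb11, the thymus subunit, did not, with highest group means of -0.02 and -0.77. Among the genes that passed, including the immunoproteasome genes, the brightest probe sets were those of Psmc2 (7.97 on average over the 8 groups), Psme4 (7.81) and Psmb4 (7.51). The dimmest were those of Psmg4 (2.10), Psmg3 (2.19) and Psmb9 (2.53). Brightness depends on the probes as well as on the RNA, so this order ranks probe sets and not transcripts.

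The middle level of the group differed by less between conditions than between arrays of a condition. The median of the 42 constitutive genes on an array, leaving out treated B2KO replicate 10, lay between 5.28 and 6.91. By group, the middle array was at 6.46 in untreated and 6.08 in treated FVB, 6.19 and 6.37 in C57BL/6, 6.42 and 6.23 in B6129SF2/J, and 6.32 and 6.12 in B2KO without replicate 10. Ranges overlapped between treated and untreated arrays in every line. The median over all genes tested, on the middle array, was 3.00 untreated and 2.90 treated in FVB. It was 2.96 and 3.11 in C57BL/6, and 3.01 and 3.02 in B6129SF2/J. Subtracting each array's median over all genes tested left a middle array at 3.42 untreated and 3.10 treated for FVB. It left 3.29 and 3.15 for C57BL/6, 3.39 and 3.26 for B6129SF2/J, and 3.36 and 3.31 for B2KO without replicate 10. After this step the middle treated array was the lower one in every line, C57BL/6 included.

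**Figure D1:**
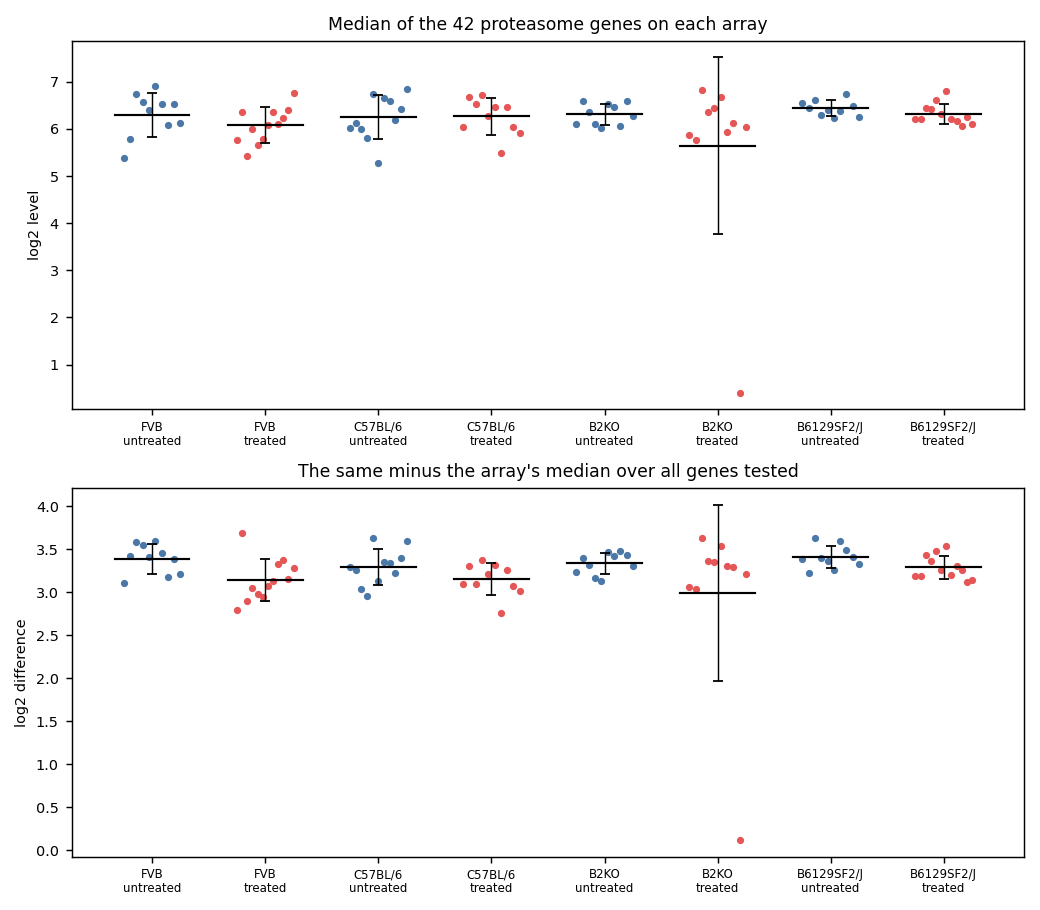
Median of the 42 constitutive proteasome genes on each array (top, log2 level) and the same minus the array's median over all genes tested (bottom, log2 difference), by line and treatment. Points are arrays, the horizontal line is the group mean and the bar its SD; the low point in treated B2KO is replicate 10, at 0.41 in the top panel.

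In C57BL/6 hearts isoproterenol lowered 2 ATPases of the cap and raised 2 other members. Psmc6 (Rpt4) and Psmc2 (Rpt1), both ATPases of the ring, fell, while Psme3 (PA28 gamma, the nuclear activator) and Psmd9 (p27, a chaperone of cap assembly) rose. These were the 4 of 42 constitutive genes past the threshold, a limma adjusted p under 0.05. Without untreated C57BL/6 replicate 11 there were 5, and the share of all genes was not taken there. With all arrays 19.5% of all genes tested passed in this line, 12.5% higher and 6.98% lower. The median difference of the 42 was 0.08, against 0.09 for all genes tested. Of the 42 differences 27 were above 0, against 57.4% of all genes tested. The members' median turned to -0.087 once the gene median of every array was set equal (centring) and to -0.014 after quantile normalization, with 16 and 21 differences above 0.

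Psmc6 was between 5.80 and 7.30 in the 11 untreated C57BL/6 hearts, with a median of 6.59. In the 10 treated hearts it was between 5.05 and 6.67, with a median of 5.78. The ranges overlapped, and 9 of 10 treated arrays lay below the untreated mean. The log2 difference was -0.75 (SE 0.22, limma adjusted p = 0.00957), 0.597 times the untreated level (95% interval 0.442 to 0.805). It stayed past the threshold without any single array and under all 11 alternative settings, with adjusted p from 2.49e-05 to 0.0137.

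Psmc2 was between 7.68 and 8.83 in untreated hearts, with a median of 8.20. In treated hearts it was between 7.31 and 7.99, with a median of 7.81. All 10 treated arrays lay below the untreated mean, and the ranges overlapped. The difference was -0.51 (SE 0.16, limma adjusted p = 0.0183). When all probe sets of the gene were averaged the adjusted p was 0.447, since its other bright probe set differed by only -0.04.

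Psme3 was between 2.75 and 4.75 in untreated hearts, with a median of 3.76, and between 3.80 and 5.36 in treated ones, with a median of 4.68. The upper untreated and lower treated arrays overlapped, and 8 of 10 treated arrays were above the untreated mean. The difference was 0.64 (SE 0.22, limma adjusted p = 0.0298). Leaving out any one of 8 arrays (untreated 1, 3, 4 or 6, or treated 3, 4, 5 or 6) ended this call, with adjusted p up to 0.0871. The call was also lost with probe sets averaged and with the arrays of this line alone (highest p 0.259).

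Psmd9 was between 0.84 and 2.90 in untreated hearts, with a median of 2.46, and between 2.43 and 3.56 in treated ones, with a median of 2.85. All 10 treated arrays were above the untreated mean, and the ranges overlapped. The difference was 0.72 (SE 0.24, limma adjusted p = 0.0257). Without untreated 1, 3 or 6, or treated 2 or 3, the call was lost, with adjusted p up to 0.0779. Quantile normalization also ended it, and averaging the probe sets turned the sign to -0.22, because a dim probe set of Psmd9 differed by -1.11.

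**Figure D2:**
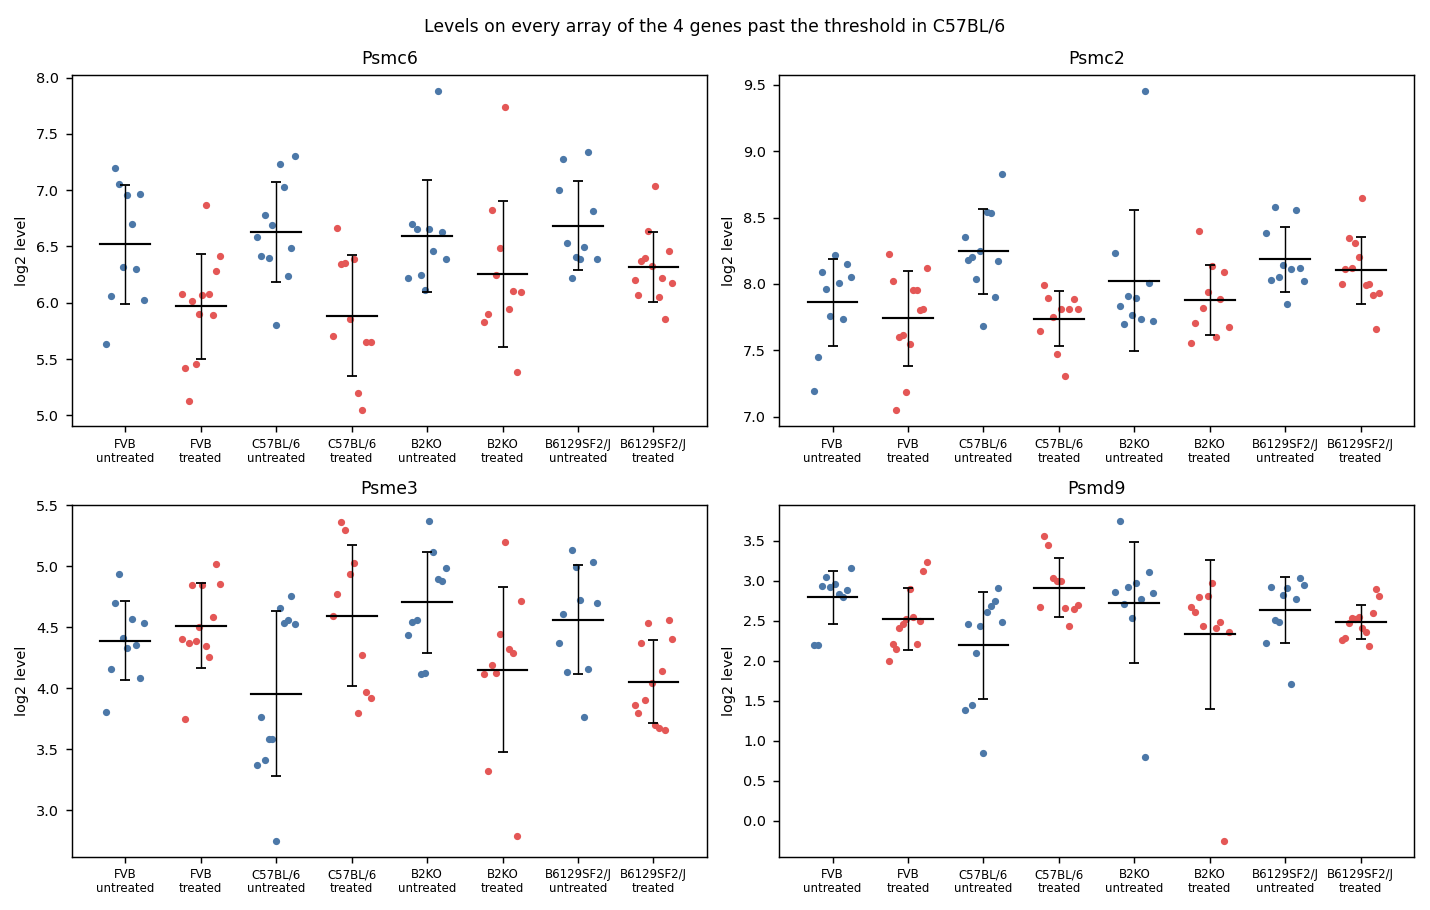
Log2 level of Psmc6, Psmc2, Psme3 and Psmd9 on every array, by line and treatment, with the group mean and its SD. The treated C57BL/6 arrays lie mostly below the untreated ones for Psmc6 and Psmc2 and mostly above them for Psme3 and Psmd9, and the ranges overlap for all 4 genes.

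The largest difference in C57BL/6 was that of Psmb2, a beta subunit, at 0.87, which missed the threshold (SE 0.39, limma adjusted p = 0.101). All 10 treated arrays were above the untreated mean, and without treated B2KO replicate 10, whose spread enters the common error of the fit, the adjusted p was 0.0271. The active-site subunits Psmb5, Psmb6 and Psmb7 differed by 0.30, 0.14 and 0.03, with none past the threshold. Of the 6 ATPases 2 passed, both lower. Of the 14 Psmd genes, classed together by symbol, 1 passed, higher: Psmd9, a chaperone of cap assembly. Of 3 activators 1 passed, higher, and of the alpha, beta and Psmg chaperone classes none passed. The activator Psme1 (PA28 alpha) differed by -0.32 (adjusted p = 0.551).

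The split of higher against lower calls in C57BL/6 depended on the scaling between arrays, on the probe sets and on the arrays kept. It was 2 higher and 2 lower as deposited, 1 and 6 after quantile normalization, and 2 and 6 when each array was centred on the median of its genes, which moved the median of all genes from 0.09 to -0.07. The added lower genes were Psma1, Psmd12, Psme4 and Psmg1 in both cases, and the higher ones were Psme3 alone after quantile normalization and Psmd9 with Psme3 after centring. With probe sets averaged there were 0 higher and 3 lower (Psma1, Psmc6, Psme4), so neither Psme3 nor Psmd9 passed. With the C57BL/6 arrays alone there were 3 higher (Psmd3, Psmd9, Psmd13) and 3 lower (Psma1, Psmc2, Psmc6). Without treated B2KO replicate 10 there were 7 calls, 4 higher (Psmb2, Psmd9, Psme3, Psmg3) and 3 lower (Psma1, Psmc2, Psmc6). Without all 8 doubted arrays there were 11, with 8 higher and the same 3 lower. The shares of all genes called higher and lower moved as well. They were 10.8% and 13.8% after quantile normalization, and 12.2% and 17% after centring. With probe sets averaged they were 16.3% and 7.77%, and with this line alone 15.9% and 8.54%. Without treated B2KO replicate 10 they were 17.9% and 9.15%, and without the 8 arrays 24.1% and 9.36%.

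In FVB no constitutive gene of 42 passed the threshold, where 1.51% of all genes did and 2 of the 42 had an unadjusted p under 0.05. No share of all genes at the unadjusted threshold was taken in this or any other comparison. The differences leaned low, with 6 of 42 above 0, against 49.3% of all genes. Their median was -0.15, against -0.01 for all genes. Psmb3, a beta subunit without an active site, had the largest fall in value. It was between 6.47 and 8.08 in untreated hearts (median 7.15) and between 5.56 and 7.28 in treated ones (median 6.35), lower than the untreated mean in 10 of 12. Its difference was -0.70 (SE 0.22, limma adjusted p = 0.0946). Under quantile normalization Psmb3 and Psmc6 passed, lower, and under centring Psmd12 too; without the strain-doubt and failed arrays Psmb3 alone passed. The active-site subunits Psmb5, Psmb6 and Psmb7 differed by 0.06, -0.45 and -0.14, Psme1 by -0.10, and the largest positive difference among constitutive genes was 0.20, for the inhibitor Psmf1.

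In B6129SF2/J again 0 of 42 passed, where 4.52% of all genes did and 2 of the 42 had an unadjusted p under 0.05. The median difference was -0.24, against -0.02 for all genes, and 8 of 42 were above 0, against 47.1% of all genes. The largest fall in value was in Psmg4, an assembly chaperone. It was between 2.00 and 3.37 in untreated hearts (median 2.51) and between 1.26 and 2.74 in treated ones (median 1.82), below the untreated mean in 11 of 12 arrays. The difference was -0.75 (SE 0.27, limma adjusted p = 0.0924), and Psmg4 passed without treated B2KO replicate 10 (adjusted p = 0.0385). The active-site subunits Psmb5, Psmb6 and Psmb7 differed by 0.24, -0.14 and -0.32, Psme1 by -0.38 and Psmf1 by 0.28.

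In the fit over the B6129SF2/J arrays alone, 14 of 42 constitutive genes were lower and none higher, while 2781 of 11961 genes passed in all, 9.99% higher and 13.3% lower. The 14 spanned the complex: the alpha subunits Psma2 and Psma5, the beta subunits Psmb2, Psmb3 and Psmb7, the ATPases Psmc1 and Psmc5, the non-ATPase subunits Psmd2, Psmd4 and Psmd6, the activators Psme1 and Psme3, and the chaperones Psmg1 and Psmg4. Each difference is the same in both fits, which differ in its error. Psmg1, for example, was between 4.47 and 5.12 in untreated hearts (median 4.63) and between 3.69 and 4.50 in treated ones (median 4.23), with all 12 treated arrays below the untreated mean and a difference of -0.51.

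In B2KO no constitutive gene passed either, where 1.81% of all genes did, and 14 of the 42 had an unadjusted p under 0.05. That count of 14 includes treated replicate 10 and was not taken without it. The share of all genes under that unadjusted threshold was not taken either. The median difference was -0.48, against -0.28 for all genes, but most of both lay in treated replicate 10: without it the medians were -0.10 and -0.08. The largest fall in value was in Psmg1, at -0.97 (SE 0.28, limma adjusted p = 0.0507). Psmg1 was between 3.77 and 6.11 in untreated hearts (median 4.55) and between 0.27 and 4.81 in treated ones (median 4.08). Without replicate 10 the difference of Psmg1 was -0.59 (adjusted p = 0.286). With all arrays 1 of 42 differences was above 0, that of Psmd7, at 0.09, where 19.8% of all genes were above 0. Without replicate 10 there were 13 of 42. Psmb5, Psmb6, Psmb7 and Psme1 differed by -0.55, -0.97, -0.74 and -0.92, and none passed. Without replicate 10 the same 4 genes differed by 0.12, -0.38, -0.075 and -0.29, and none passed.

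**Figure D3:**
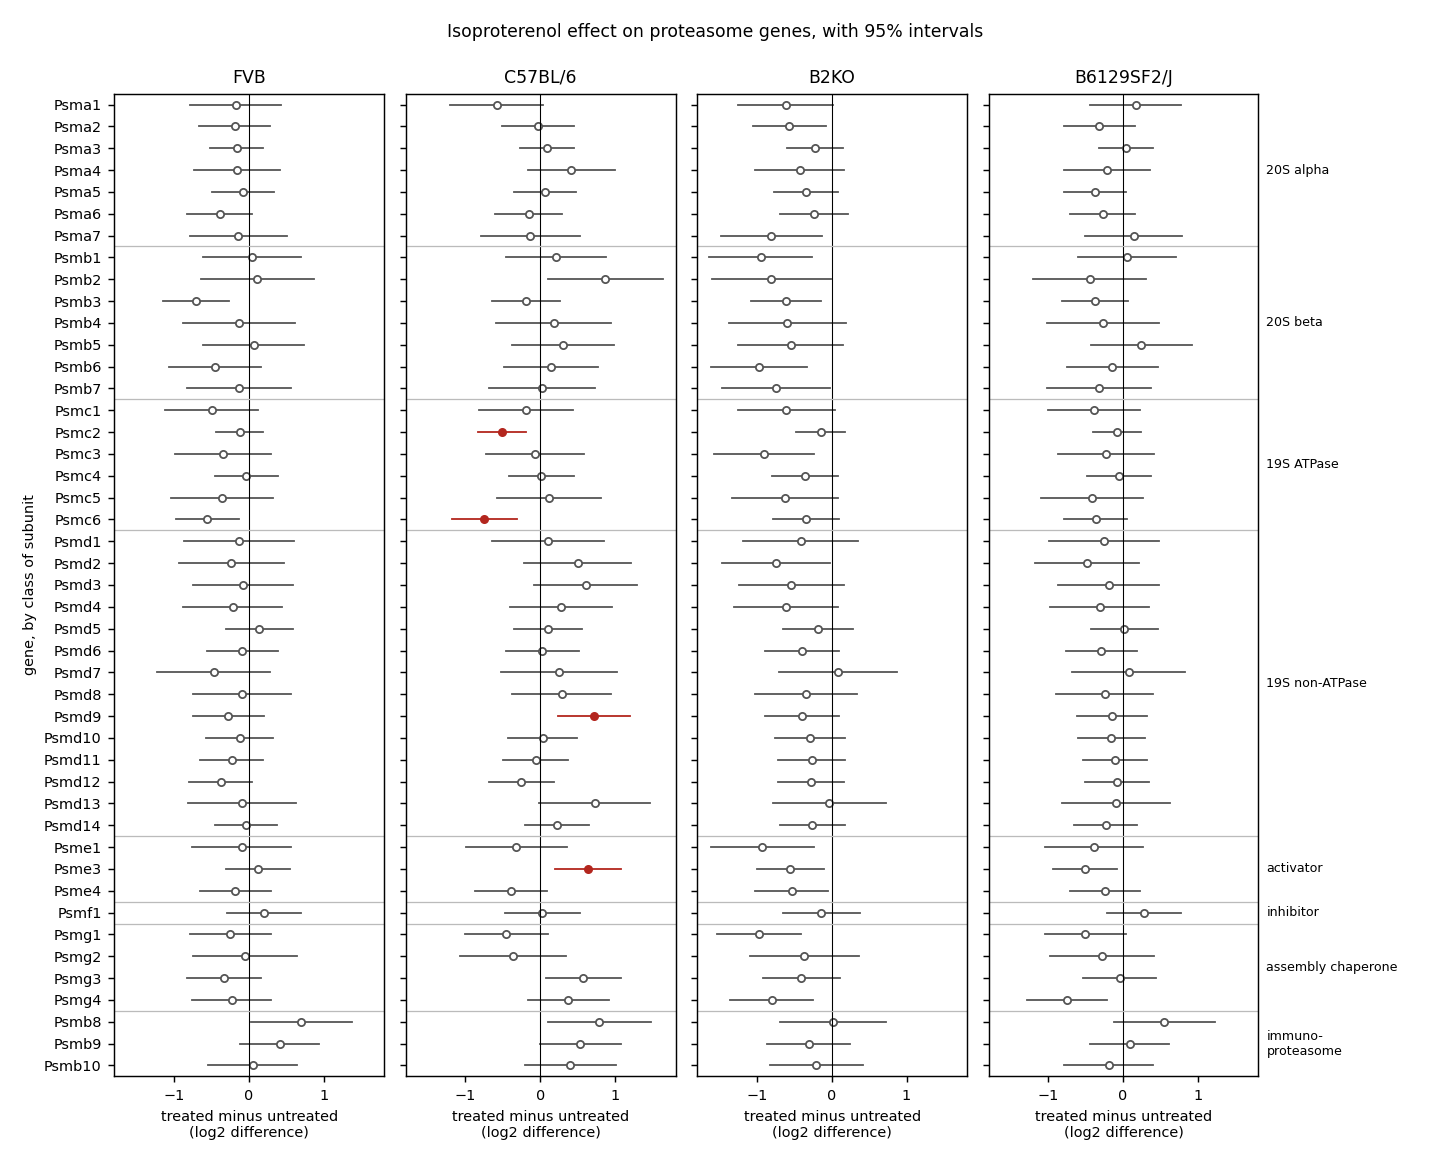
Treated minus untreated log2 difference with its 95% interval for 42 constitutive and 3 immunoproteasome genes in each line, ordered by class of subunit. Filled red points passed a limma adjusted p of 0.05; they are Psmc2, Psmc6, Psmd9 and Psme3, all in C57BL/6.

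Psmc6, followed here because it passed in C57BL/6, was below the untreated mean in most treated arrays of each line. These were 11 of 12 in FVB, 9 of 10 in C57BL/6, 8 of 10 in B2KO and 11 of 12 in B6129SF2/J. The differences of Psmc6 were -0.55, -0.75, -0.34 and -0.37 in that order. As deposited, the differences of the 3 other lines from C57BL/6 did not pass the threshold. After quantile normalization and after centring, the B2KO response of Psmc6 passed as higher than that of C57BL/6. Other members, such as Psmb3, Psmc1 and Psmg1, also had lower treated than untreated means in every line. The 95% interval of a difference lay within a 2-fold change either way for 37 of 42 genes in FVB, 30 in C57BL/6, 33 in B6129SF2/J and 18 in B2KO, or 37 in B2KO without replicate 10.

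The response to isoproterenol differed from that of C57BL/6 for few members, and all these comparisons share the C57BL/6 arrays. For FVB 0 of 42 passed, where 1.7% of all genes did and 2 of the 42 had an unadjusted p under 0.05. For B2KO 4 of 42 passed, all lower than in C57BL/6, where 10.5% of all genes passed, 1.61% higher and 8.94% lower. They were Psme3 (-1.19, SE 0.31, limma adjusted p = 0.0122), Psmd9 (-1.12), Psmg4 (-1.18) and Psmb2 (-1.68). Without treated B2KO replicate 10 only Psme3 remained (-1.04, adjusted p = 0.0268), and in the fit over the arrays of both lines alone none did. Centring the arrays ended all 4 of these calls and made Psmc2 and Psmc6 pass in the other direction. Quantile normalization also gave 4 calls, but with Psmc2, Psmc6 and Psmd12 higher and Psmd9 lower. Of all genes 4.99% were higher and 4.51% lower by quantiles, and 5.81% and 2.8% centred. Without all 8 doubted arrays there were 7 calls, all lower: Psmb2, Psmd9, Psme3 and Psmg4 again, with Psmd2, Psmd3 and Psmg3. Of all genes 2.99% were higher and 13.5% lower without those 8, and 1.33% and 4.26% without treated B2KO replicate 10 alone. Without untreated B2KO replicate 8 there were 8 calls, and the share of all genes was not taken there. Psmd9 also lost its call without untreated C57BL/6 1 or 6 or untreated B2KO 2. Psmg4 lost it without any one of 12 arrays: C57BL/6 untreated 1, 2, 3, 4 or 6 or treated 3, 4 or 8, or B2KO untreated 2 or 7 or treated 2 or 10. Psmb2 lost it without any one of 15: C57BL/6 untreated 1, 2, 3, 4 or 6 or treated 2, 3, 4 or 8, or B2KO untreated 2, 6, 9 or 10 or treated 2 or 10.

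For B6129SF2/J 1 of 42 passed, Psme3, where 5.65% of all genes passed, 2.38% higher and 3.27% lower. Its difference of response was -1.15 (SE 0.31, limma adjusted p = 0.0147), and it kept its call without any single array. In B6129SF2/J itself Psme3 was between 3.76 and 5.13 in untreated hearts (median 4.65) and between 3.66 and 4.56 in treated ones (median 3.97). Of the 8 groups, untreated C57BL/6 had the lowest median of Psme3 (3.76). Averaging the 3 probe sets of Psme3 ended the call (adjusted p = 0.197). Without treated B2KO replicate 10 there were 6 calls in this comparison: Psmb2, Psmd2, Psmd9, Psme3 and Psmg4 lower and Psma1 higher. Of all genes 3.65% were then higher and 7.09% lower.

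Untreated hearts of the lines were compared as well. No constitutive gene of 42 passed between FVB and C57BL/6, where 12.2% of all genes did and 2 of the 42 had an unadjusted p under 0.05. The nearest was Psmd9, 0.60 higher in FVB (limma adjusted p = 0.0891), and it passed without replicate 10 of treated B2KO. Between B6129SF2/J and C57BL/6 0 of 42 passed, where 7.67% of all genes did and 4 of the 42 had an unadjusted p under 0.05. In this comparison 34 of 42 differences were above 0, against 61.0% of all genes. Their median was 0.18, against 0.11 for all genes. Cardiomyocyte markers moved the same way, 8 of 8 above 0 and 4 past the threshold (median 0.73), as did 4 of 4 endothelial markers in value (median 0.54), and their part in the result was not tested. Without treated B2KO replicate 10 there were 6 calls, all higher in B6129SF2/J: Psma4, Psmb2, Psmb4, Psmd2, Psme3 and Psmg4. Of all genes 8.25% were then higher and 5.42% lower. Between B2KO and FVB 0 of 42 passed, where 0.0167% of all genes did and 0 had an unadjusted p under 0.05. Sequence differences between lines under the probes were not tested.

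None of the 3 immunoproteasome genes passed the threshold in any line, and Psmb8 was higher in value in most treated hearts of the lines other than B2KO. Psmb8 (LMP7) in C57BL/6 was between 1.78 and 3.44 untreated (median 3.06) and between 2.80 and 4.42 treated (median 3.52), above the untreated mean in 9 of 10. The difference was 0.79 (SE 0.35, limma adjusted p = 0.0962). In FVB it was between 2.18 and 4.62 untreated (median 3.11) and between 2.37 and 4.90 treated (median 4.11), a difference of 0.70 (limma adjusted p = 0.404). In B6129SF2/J it was between 1.92 and 3.36 untreated (median 2.91) and between 2.98 and 4.14 treated (median 3.36), above the untreated mean in all 12 arrays, a difference of 0.55 (limma adjusted p = 0.428). In B2KO it differed by 0.02, with the lowest arrays at -0.97 (untreated replicate 8) and -0.35 (treated replicate 10).

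Psmb9 (LMP2) differed by 0.41, 0.54, 0.09 and -0.31 in FVB, C57BL/6, B6129SF2/J and B2KO, and Psmb10 (MECL-1) by 0.05, 0.40, -0.19 and -0.20, with overlapping ranges throughout. The call on Psmb8 depended on the setting. In C57BL/6 it passed with probe sets averaged (adjusted p = 0.0224), with the arrays of that line alone (0.0285), without 3 arrays (0.0451) and without 8 arrays (0.0068), the last of which also called Psmb9 (0.0196). In FVB Psmb8 passed without 8 arrays (0.0277), and in B6129SF2/J with the arrays of that line alone (0.0125). In untreated hearts none of the 3 genes passed in the comparisons between lines, except that with arrays centred Psmb10 was higher in FVB than in C57BL/6.

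**Figure D4:**
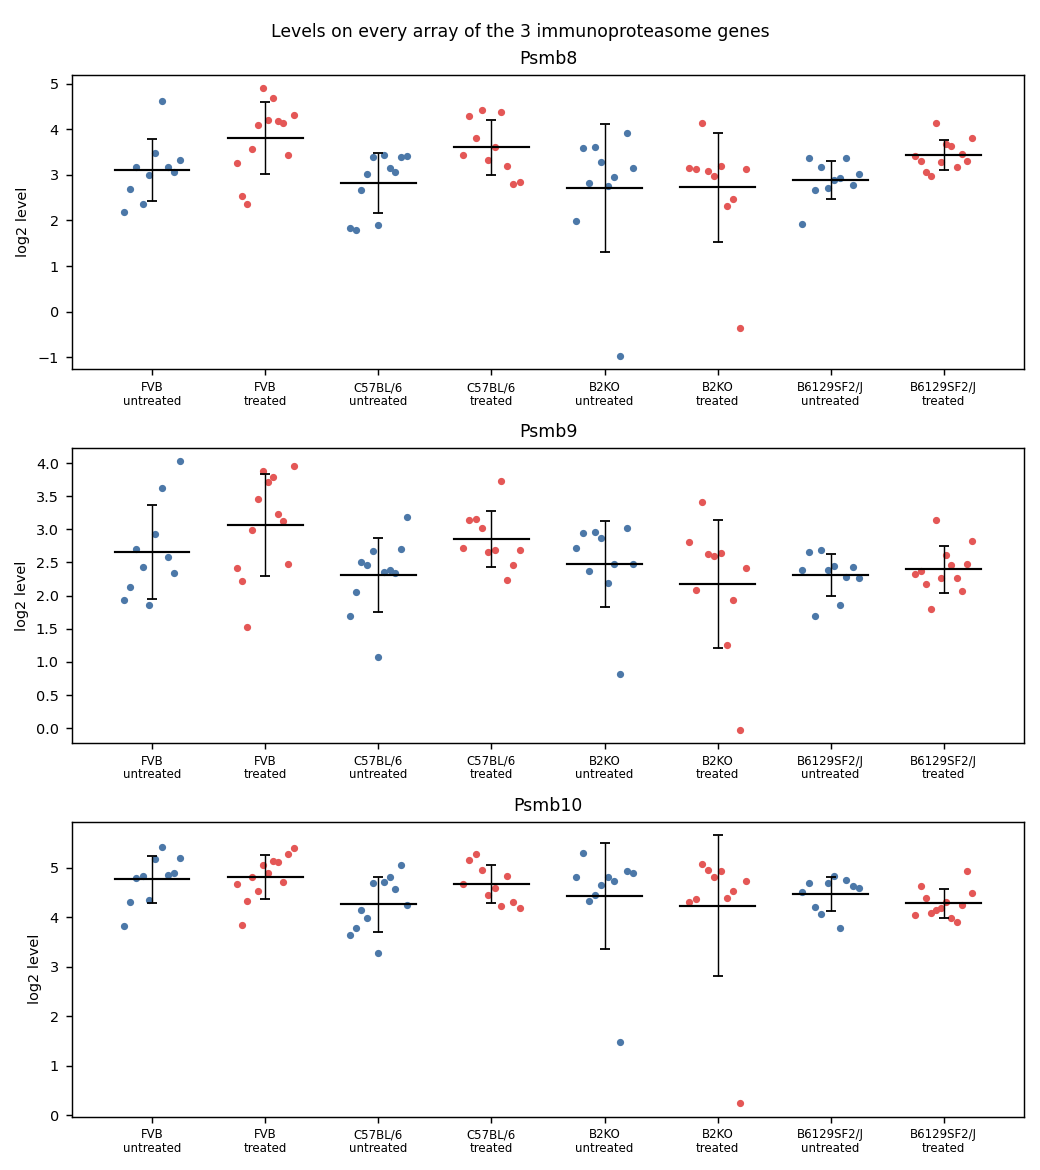
Log2 level of Psmb8, Psmb9 and Psmb10 on every array, by line and treatment, with the group mean and its SD. For Psmb8 the treated arrays of B6129SF2/J all lie above the untreated mean, and the ranges overlap in each line.

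Leukocytes express the immunoproteasome constitutively, so leukocyte markers are given beside it. All 12 were read; the B cell marker Cd79a was dim, with a median below 0 in every group. Their summed linear level is weighted to the brightest, Lyz2 and Csf1r, with log2 means of 7.41 and 5.94 in untreated C57BL/6. Cd3e and Cd79a were at -0.14 and -1.14 there and add little to it. The sum had a median of 304 in untreated and 417 in treated FVB, and 293 and 439 in C57BL/6. It was 273 and 394 in B6129SF2/J, and 271 and 303 in B2KO. The ranges ran from 120 to 429 against 178 to 720 in FVB, 191 to 610 against 347 to 721 in C57BL/6, 227 to 351 against 288 to 557 in B6129SF2/J, and 130 to 377 against 166 to 555 in B2KO. Of the 12, Cd52 passed in FVB (1.11), Coro1a (1.75) and Laptm5 (0.87) passed in C57BL/6, Cd79a passed in B6129SF2/J (-1.08), and none passed in B2KO. Other cell type markers moved too. In C57BL/6 all 4 endothelial markers rose (median 1.18), as did 2 of 5 fibroblast markers, 1 of 8 cardiomyocyte markers and the single erythroid marker tested. In FVB 1 of 5 fibroblast markers and the erythroid marker rose, in B6129SF2/J 1 of 5 fibroblast markers rose, and in B2KO none of these lists had a marker past the threshold. Within-group deviations of markers were correlated with those of the immunoproteasome genes. Pecam1 had the highest median r of the endothelial markers, at 0.74, or 0.55 without the 8 doubted arrays. Cdh5, Tie1 and Kdr were at 0.66, 0.66 and 0.47, or 0.30, 0.24 and 0.097 without them. The leukocyte markers ran from -0.20 (Cd79a) to 0.63 (Lyz2), or from -0.058 (Cd79a) to 0.58 (Cd52) without them. The part of these cells in the values of the proteasome genes was not tested.

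Psmb9 and Psmb8 lie in the MHC class II region among the transporter genes that carry their peptides into the endoplasmic reticulum. In GRCm38.p6 Psmb9 spans chr17:34182030-34187330 and Tap1 begins 225 bases beyond it, at 34187556 on chromosome 17, so a single stretch lies before both starts. Psmb8 follows 969 bases after Tap1, and Tap2 3024 bases after Psmb8. The stretch before Psmb9, which runs back into Tap1's first bases, is printed because both genes were measured on each array. It holds a CCAAT box on the opposite strand, in capitals.
Psmb9 promoter, chr17:34187331-34187580, minus strand: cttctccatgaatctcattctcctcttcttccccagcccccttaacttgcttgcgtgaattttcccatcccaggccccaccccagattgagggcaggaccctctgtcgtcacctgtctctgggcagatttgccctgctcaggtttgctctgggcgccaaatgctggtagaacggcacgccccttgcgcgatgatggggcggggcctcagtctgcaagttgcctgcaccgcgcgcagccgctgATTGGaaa
Tap1 differed by 0.61, 0.25, 0.43 and 0.15 in FVB, C57BL/6, B6129SF2/J and B2KO, and was 1.18 lower in untreated FVB than in untreated C57BL/6 (difference -1.18, limma adjusted p = 0.00871), where Psmb9 differed by 0.34 and did not pass. Tap2 rose in C57BL/6, from a median of 2.60 to 3.58 (1.18, limma adjusted p = 0.00254). Of the 14 genes read from the list of interferon gamma and MHC class I genes, 2 passed in C57BL/6, Tap2 higher and the chemokine Cxcl9 lower (-1.42), and none in FVB, B6129SF2/J or B2KO.

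Genes around the complex were read from lists of partners and regulators. Of 13 partners tested, Sem1 (Dss1, a small subunit of the cap) passed in C57BL/6, and none passed in the other lines. Sem1 was between 7.77 and 8.90 in untreated C57BL/6 hearts (median 8.43) and between 7.07 and 7.79 in treated ones (median 7.56), with all 10 treated arrays below the untreated mean. Its difference was -0.84 (SE 0.21, limma adjusted p = 0.00298), and with probe sets averaged it was -0.39 (adjusted p = 0.119). Its response in B6129SF2/J was higher than in C57BL/6 by 0.97 (limma adjusted p = 0.0392), and untreated B6129SF2/J was lower by -1.10 on the log2 scale. Pomp, the chaperone that completes the core particle, differed by -0.29, -0.32, -0.54 and -0.78 in FVB, C57BL/6, B6129SF2/J and B2KO, and did not pass. The B2KO value of Pomp includes treated replicate 10, the array of low correlation, and is given only with it.

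Of 8 regulators tested, 2 rose in C57BL/6 and none passed in the other lines. Nfe2l1, the factor named above, was between 1.55 and 5.63 in untreated C57BL/6 hearts (median 4.47) and between 5.40 and 6.31 in treated ones (median 5.73), above the untreated mean in all 10. The difference was 1.45 (SE 0.38, limma adjusted p = 0.0042), and 1.16 without the 8 doubted arrays. Of the 8 groups, untreated C57BL/6 had the lowest mean of Nfe2l1, at 4.37, and treated C57BL/6 was at 5.82. Untreated FVB, B6129SF2/J and B2KO were at 5.30, 5.37 and 5.27. Mafk, a small Maf partner of such factors, differed by 0.57 (limma adjusted p = 0.0337). Nfe2l1 differed by 0.09, 0.06 and -0.30 in FVB, B6129SF2/J and B2KO. Its response in B2KO was lower than in C57BL/6 (-1.75 on the log2 scale, limma adjusted p = 0.0305). Both B2KO differences of Nfe2l1 include treated replicate 10, the array of low correlation, and are given only with it. In the same C57BL/6 hearts the 4 members past the threshold went both ways, as given above, and the median of the 42 was 0.08. Uba6, a ubiquitin-activating enzyme and the single gene of its list that could be read, fell in C57BL/6 (-0.76, limma adjusted p = 0.0163).

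Probe sets of one gene did not always move together. With each probe set tested alone, an alternative added after the data were seen, 77 member probe sets passed the filter and 11 were called in C57BL/6, 2 higher and 9 lower, where 22.4% of all 21465 probe sets were. None was called in FVB (1.16% of all), 1 in B2KO (1%) and 2 in B6129SF2/J (4.91%). All 3 probe sets of Psmc6 fell in C57BL/6, by -0.75, -0.69 and -1.53. Those of Psmb4 parted, at 0.18 and -0.77, and only the second passed. That probe set and the one used for Psmc2 carry the suffix x_at, which the manufacturer gives to sets whose probes can match other transcripts. Psme4 (PA200), the large activator, has 3 bright probe sets that differed by -0.39, -0.28 and -0.33 in C57BL/6 without passing. Its dim probe sets at mean levels of 0.61 and 0.58 differed by -1.51 and -1.20, and both passed. In FVB and B2KO the same dim pair was lower in value (-1.06 and -0.87, -1.04 and -0.70) and did not pass. In B6129SF2/J the first of the pair and another dim probe set of Psme4 (mean level -0.36, difference -0.86) passed. Which transcript each of these probe sets reads was not tested.

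Within groups the members varied together. The Pearson r of the deviations from the group means over 85 arrays had a median of 0.63 over the 861 pairs of constitutive members, against 0.23 over all pairs of genes tested, and 0.61 against 0.21 without the 8 doubted arrays. These are descriptions over arrays that share their scaling and RNA quality. Over all 85 arrays Psmb7 (0.81), Psmb1 (0.80) and Psma4 (0.79) had the highest median r with the other members. Without the 8 doubted arrays these were at 0.64, 0.71 and 0.69. The highest were then Psma3 (0.731), Psmd12 (0.727) and Psmd14 (0.722). A few stood apart over all 85 arrays, with Psma6 at 0.13, Psmc2 at 0.16, Psmb3 at 0.27, Psma5 at 0.29 and Psma3 at 0.37. All were named after their values were seen. Without the 8 doubted arrays these low genes were at 0.65, 0.58, 0.65, 0.70 and 0.73. The lowest median r was then that of Psmf1, at 0.36.

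Psmb8, Psmb9 and Psmb10 correlated with each other at a median of 0.80 and with the other members at 0.51, or 0.54 and 0.38 without the 8 arrays. Of the partners, Pomp had the highest median r with the constitutive members (0.81), followed by Ubqln1 (0.78) and Usp14 (0.77). The regulator Nfe2l1 was at 0.49. Without the 8 arrays these were 0.76, 0.66, 0.64 and 0.33.

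**Figure D5:**
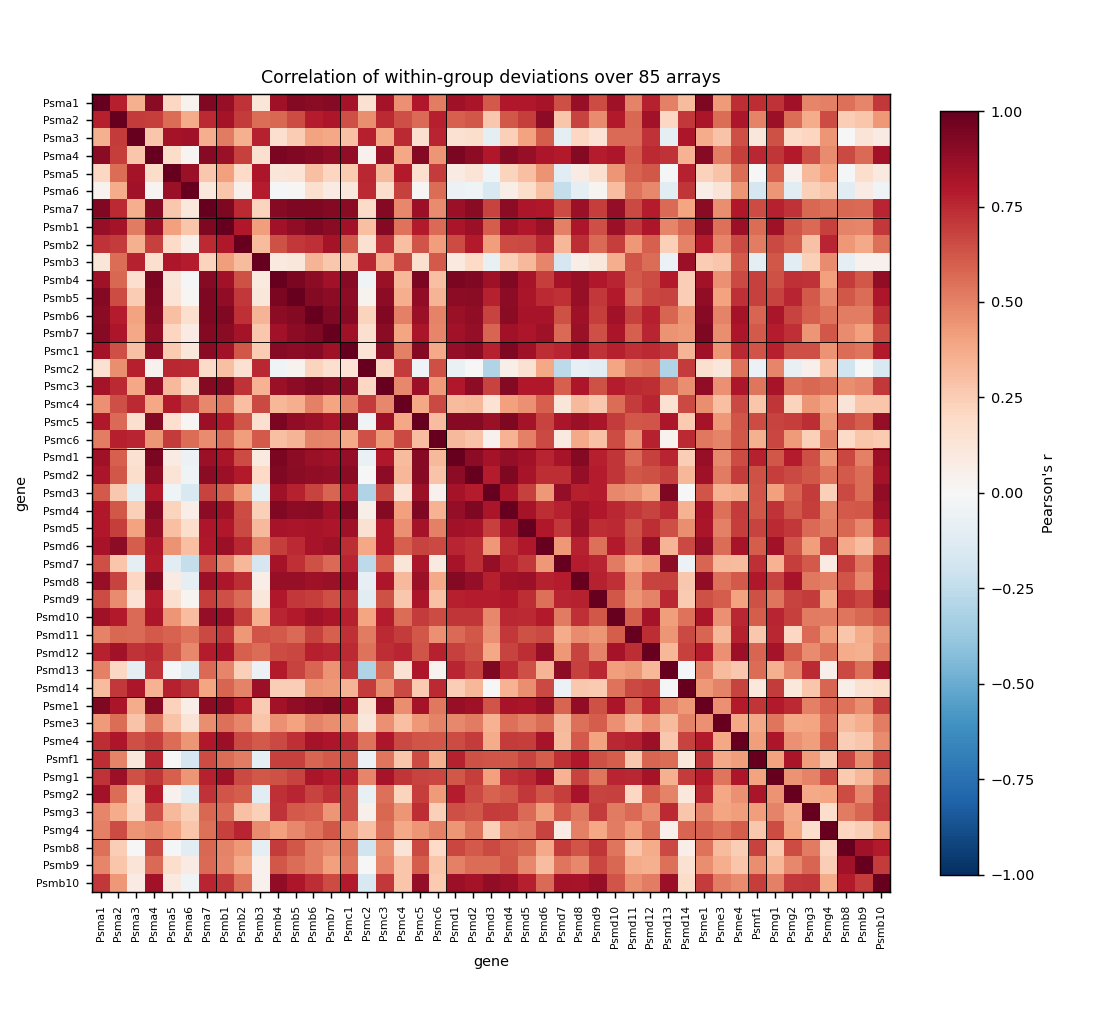
Pearson r of within-group deviations between 45 proteasome genes over 85 arrays, ordered by class of subunit, with lines between classes. Most pairs are above 0. The paler bands are Psma3, Psma5, Psma6, Psmb3, Psmc2 and Psmd14, which correlate with one another. Without the 8 doubted arrays, not drawn, the median r of these genes with the other constitutive members lay between 0.58 (Psmc2) and 0.73 (Psma3).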

How the data were processed

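Each array measured heart RNA of 1 sample. The deposited values are intensity on a linear scale. The submitters' processing notes name GCRMA without a version. The median of each array was 1; this scaling is seen in the values and not stated. Here log2 was taken. Probe sets were named by the platform's annotation with symbols updated by gene number to RefSeq (GRCm38.p6). Of 45101 probe sets 34945 had 1 symbol, and 11961 genes passed the filter (highest group mean above log2 0). The 86 arrays gave 85, because treated B2KO replicates 4 and 9 (r = 0.99999976, next pair 0.982) differed by less than any other pair and were averaged into 1. The number of arrays limits the precision. The tests came from limma 3.58.1 (R 4.3.3) in 1 two-sided fit over 8 groups with Benjamini-Hochberg adjustment over all genes tested; the fit was tested on simulated data. Figures used matplotlib 3.10.9.

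The members, lists and alternatives were chosen with earlier results of these data known. Named were the brightest and dimmest 3, the active-site subunits and Psme1, in each line up to 6 members past the threshold and the largest rise and fall, up to 4 in other comparisons and up to 3 genes per list; names outside this rule are examples. Same-numbered arrays did not deviate together (median r 0.00347), so numbers do not pair arrays.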

Additional observations from a re-analysis of the deposited data

Results flagged for a closer look

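In groups of up to 10 arrays, single arrays lay far from the rest of their group for 18 measures over 90 checks, in 24 cases; chance gives about 1 in 20. Treated B2KO replicate 10, the array of low correlation, held 12 of them: the median of the proteasome genes at 0.41, Psmb2 at -0.44, Psmb5 at 0.20, Psmb6 at 0.77, Psmb7 at 0.63, Psmb8 at -0.35, Psmb10 at 0.25, Psmd7 at 0.18, Psmd9 at -0.25, Psme1 at 0.71, Psmf1 at -0.28 and Psmg1 at 0.27. Untreated B2KO replicate 8, one of the arrays with a large Gapdh difference, held 8, some low and some high. Low were Psmb5 at 5.32, Psmb8 at -0.97, Psmb9 at 0.82, Psmb10 at 1.49, Psmd7 at 0.015 and Psmd9 at 0.79, and high were Psmc6 at 7.88 and Psmc2 at 9.46. The others were Psmb8 at 1.92 in untreated B6129SF2/J replicate 1, Psmb2 at 6.59 in untreated B6129SF2/J replicate 8, Psmd7 at 5.09 in untreated FVB replicate 1 and Psmf1 at 1.08 in untreated FVB replicate 10.

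Responses to isoproterenol differed between lines by the test of the difference itself for 5 member results. Relative to C57BL/6, B2KO differed by -1.19 for Psme3, -1.12 for Psmd9, -1.18 for Psmg4 and -1.68 for Psmb2, and B6129SF2/J by -1.15 for Psme3. Without treated B2KO replicate 10 the B2KO differences of Psmd9, Psmg4 and Psmb2 were -0.83, -0.94 and -1.14 and did not pass. Without all 8 doubted arrays, that one included, these 3 genes and Psme3 passed, where 13.5% of all genes were called lower.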

How the results depend on the processing

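Counts of constitutive genes past the threshold moved as follows. The counts over all genes tested, out of 11961 unless stated, follow each in the same order. After quantile normalization they were 2 in FVB, 7 in C57BL/6 and 1 in B2KO. They were 3 for the B6129SF2/J response minus that of C57BL/6, and 2 in both untreated comparisons with C57BL/6. Over all genes these were 463, 2943, 179, 1032, and 2155 and 1361 for untreated FVB and B6129SF2/J. With arrays centred they were 3 in FVB, 8 in C57BL/6, 1 in B2KO and 1 in B6129SF2/J. They were 1, 2 and 4 for the responses of FVB, B2KO and B6129SF2/J minus C57BL/6, and 2 and 4 for untreated FVB and B6129SF2/J. Over all genes these were 546, 3490, 230 and 1175, then 476, 1030 and 1281, then 2356 and 1603. With probe sets averaged they were 2 for the B2KO response and 1 in both untreated comparisons, and with no filter 2 and 1 (untreated B6129SF2/J). Over all genes these were 1407, and 1594 and 999, of 11088 averaged genes, and 1110 and 841 of 18193 unfiltered genes. The stricter filter and trended, robust moderation each gave 1 in B2KO, where 333 of 8728 and 242 of 11961 genes passed. With the lines compared alone they were 14 in B6129SF2/J and 0 and 9 for the B2KO and B6129SF2/J responses. For untreated FVB and B6129SF2/J they were 1 and 9. Over all genes these were 2781, then 246 and 2107, then 1789 and 2434. Without the failed array they were 7 in C57BL/6, 1 in B6129SF2/J, 1, 1 and 6 for the responses, and 1 and 6 untreated. Over all genes these were 3237, 1006, then 445, 668 and 1285, then 2133 and 1635. Without 3 arrays the member counts were the same, and 1 in FVB. Over all genes they were then 3328, 1062, then 317, 571 and 1332, then 2188 and 1702, and 576 in FVB. Without 8 arrays the member counts were 1 in FVB, 11 in C57BL/6, 1 in B6129SF2/J, 3, 7 and 9 for the responses, and 2 and 8 untreated. Over all genes these were 845, 3997, 1199, then 689, 1969 and 1978, then 2208 and 2305. With the replicate block C57BL/6 had 4 and B6129SF2/J 0 calls, and no count changed. Leaving out single arrays gave 2 to 5 in C57BL/6 (5 without untreated 11) and 0 to 3 in B2KO (3 without treated 3 or 5). It gave 1 to 8 (8 without untreated B2KO 8) and 1 to 2 for the B2KO and B6129SF2/J responses, and 0 to 2 for untreated B6129SF2/J. Counts over all genes were not taken with single arrays left out.

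In C57BL/6 the count was 3 with probe sets averaged and 6 with the line alone, where 2671 of 11088 and 2922 of 11961 genes passed. Relative to the smaller SD of array medians in the groups compared (0.227 in B2KO), the median difference moved by more than 1 SD in B2KO only: from -0.48 to -0.24 by quantiles, -0.16 centred, -0.096 with the failed array left out, -0.11 with 3 left out and -0.095 with 8 left out, and between -0.59 and -0.096 without single arrays. In C57BL/6 it turned from 0.08 to -0.014 by quantiles and -0.087 centred. Signs also turned for values that did not pass: Psmf1 to -0.30 in FVB and -0.20 in B6129SF2/J, and Psmd7 to -0.14 in B2KO, with probe sets averaged; Psmb6 to -0.021 and Psmb7 to -0.14 in C57BL/6 when centred, Psmb7 to -0.065 by quantiles; in B2KO Psmb5 to 0.12 without the failed array and 0.10 without 3, Psmb9 to 0.014 centred and 0.082 without 3, and Psmb10 to 0.021, 0.12, 0.24 and 0.27 by quantiles, centred, without the failed array and without 3. Psmd9, which had passed, turned to -0.22 in C57BL/6 and 0.026 for the B2KO response with probe sets averaged. Leaving out single arrays, Psmb5 ran from -0.032 to 0.15 and Psmb10 from -0.054 to 0.14 in FVB, Psmb7 from -0.073 to 0.15 in C57BL/6, and Psmb5 from -0.70 to 0.12, Psmb8 from -0.39 to 0.36, Psmb10 from -0.53 to 0.24 and Psmd7 from -0.46 to 0.63 in B2KO. The cause was not tested. Dim probe sets limit what can be read for Psmg3, Psmg4, Psmd9 and Psmb9.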
